A study of Arabidopsis thaliana with 6 samples.

Results

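WRKY proteins are plant transcription factors that share a DNA-binding domain named for its conserved tryptophan, arginine, lysine and tyrosine residues, and they bind W-box elements in the promoters of their targets. The family is sorted into groups I, II and III by the number of WRKY domains and the form of the zinc finger. Many members act in immune responses, leaf senescence and nutrient stress, and several respond within minutes to hours to pathogens, wounding or touch. Here the family is the set of probe sets on the Affymetrix ATH1 GeneChip whose annotation names 1 gene with a symbol of the form WRKY and a number. The rule found 6 of 22810 probe sets, 1 each for WRKY6, WRKY20, WRKY22, WRKY42, WRKY47 and WRKY53. The reference gene table holds 67 such symbols, so the 6 are a small part of the family, and the others were not analysed here.

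The arrays were hybridised with RNA of whole pollinated flowers at stage 14-15 of Arabidopsis thaliana, all of the Ler accession. There were 3 arrays of pop2-1 flowers, which the protocols describe as homozygous for the mutation, and 3 of wild-type flowers. GABA (γ-aminobutyric acid) is degraded by the transaminase that the POP2 gene encodes, and the series set mutant flowers, with much endogenous GABA, against wild-type ones. Growth and collection text of the wild-type samples repeats the mutant's wording, so groups were taken from the titles. Titles call the replicates biological, without saying what separates them, so the tests below measure the spread between these arrays. In whole flowers, fewer cells that express a gene and less RNA per cell cannot be told apart.

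Each value is a MAS5 signal, a linear hybridisation intensity in which every array has the same average. A probe set was tested if its mean over the 6 arrays, taken on the log2(signal + 16) scale, corresponded to a signal above 126.2. This left 13647 probe sets, among them those of WRKY6, WRKY20, WRKY47 and WRKY53. WRKY47, at 138, lay just inside that level, and WRKY22, at 119, just outside. Differences are on the log2(signal + 16) scale, which understates changes of dim transcripts, and p-values come from limma with Benjamini-Hochberg adjustment over the 13647.

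The pop2-1 arrays differed among themselves more than the wild-type arrays did. Over the tested probe sets, Spearman's rho between arrays was 0.929 to 0.96 within pop2-1 and 0.979 to 0.982 within wild type, across transcripts that are not independent. One array, that of pop2-1 replicate 2, had a raised actin 3'/5' ratio, a measure of RNA degradation, at 9.73 where the remaining 5 arrays gave 1.72 to 2.93. A further actin control pair read higher on all 6 arrays, at 40.01 on that array and 8.93 to 17.07 on the remaining 5. A GAPDH control pair gave 4.02 on that array and 1.0 to 1.45 on the remaining 5. The actin ratio used below is that of the first pair. Of the tissue markers, the nectary sugar exporter SWEET9, the scent gene BSMT1, the ovule gene INO and the pollen genes ANX2 and MGH3 lay above 126.2 on all 6 arrays, and BSMT1 was among the probe sets that rose in pop2-1 (log2 1.90, limma adjusted p = 0.00205). The leaf photosynthesis gene RCA also lay above that level on all 6. The pollen gene ANX1 and the root-hair expansin EXPA7 lay below it on all 6, and the pollen gene ACT12 on wild-type replicate 1 (98). The levels of POP2 were not analysed here.

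WRKY53 and WRKY6, both known as regulators of leaf senescence, had lower means on the log2 scale in pop2-1 flowers, by 0.92 and 0.43. WRKY20 and WRKY47 differed by 0.13 and 0.16 the other way. None of these 4 passed the test, and the count of 0 of 4 stands beside 0.462% of all tested probe sets. At an unadjusted p under 0.05 there was 1 of 4, WRKY6, beside 11.9% of all tested probe sets. With the replicate number as a block there were 2 of 4, WRKY6 and WRKY53, beside 17% of all tested probe sets. In a fit without the filter on dim probe sets there were 0 of 6. There the unadjusted limma p of WRKY6 was 0.0575, against 0.0464 with the filter, and the share over all probe sets is not given. The median difference of the 4 was -0.15, and that of all tested probe sets was 0.03. Of the 4, WRKY53 had the widest spread between replicate arrays.

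**Figure D1:**
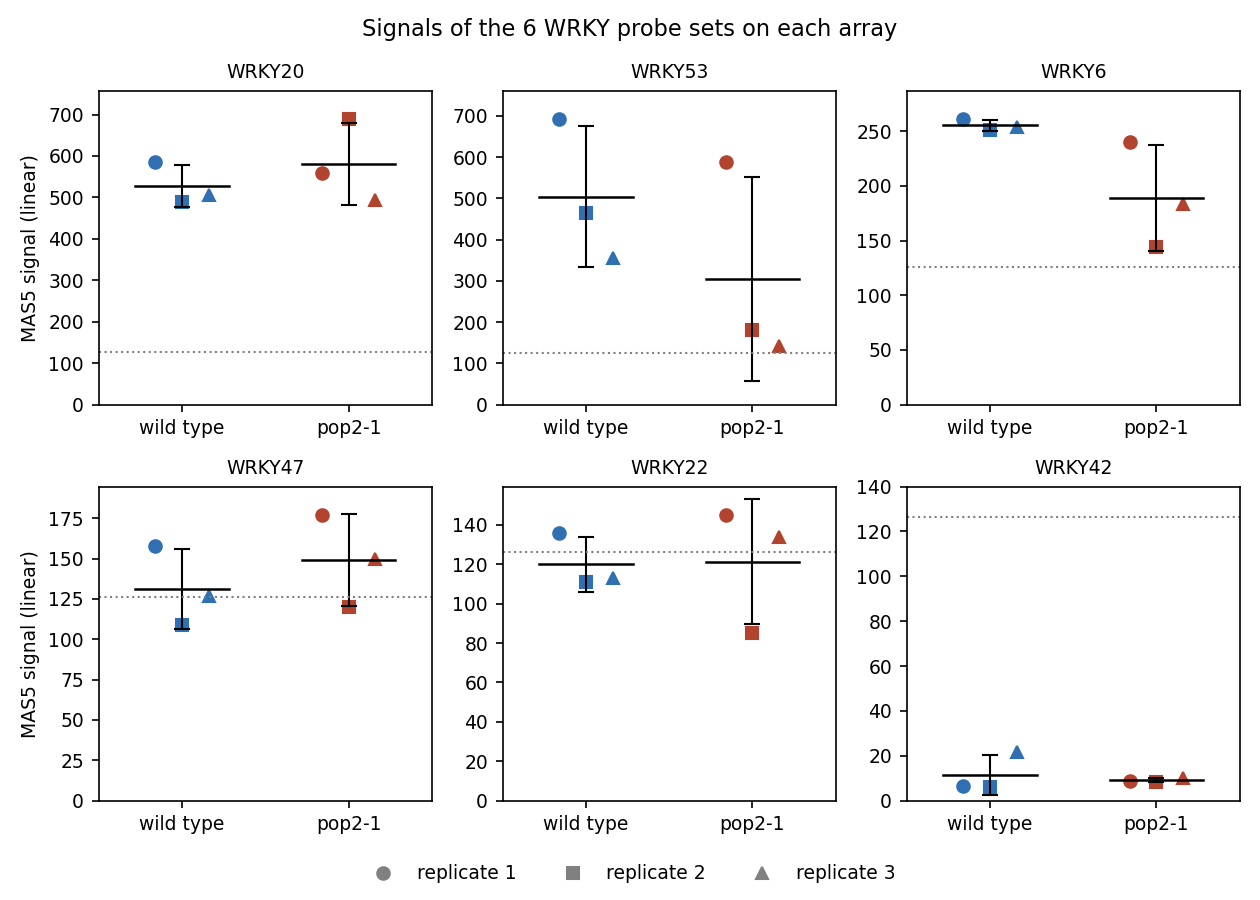
MAS5 signals (linear axes, each panel on its own scale from 0) of the 6 WRKY probe sets on 3 wild-type (blue) and 3 pop2-1 (red) arrays, with symbols for the replicate number, a horizontal bar for the mean and error bars for the SD; the dotted line marks a signal of 126.2. WRKY6 is the panel in which the groups do not overlap, WRKY53 has the widest spread, and WRKY42 stays between 5.88 and 21.9 on all arrays.

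WRKY53 is a group III factor that promotes leaf senescence and whose transcript is induced quickly by stress. Its signals were 588, 182 and 141 on pop2-1 replicates 1, 2 and 3, and 692, 464 and 356 on the wild-type replicates of the same numbers. Replicates 2 and 3 of pop2-1 thus lay below all wild-type arrays, while replicate 1 lay above 2 of the 3 wild-type arrays, so the groups overlapped. The mean signals were 304 ± 247 and 504 ± 172 (SD, n = 3 per group). The difference between means taken on the log2 scale was -0.92 ± 0.45 (SE, limma adjusted p = 0.458). It corresponds to a 1.89-fold lower level in pop2-1, which is not the ratio of the mean signals above. The 95% interval of the log2 difference ran from -1.92 to 0.09. The interval holds both no difference and a decrease of more than 2-fold.

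The spread of WRKY53 was large in both groups. Its SD on the log2 scale was 1.04 in pop2-1 and 0.47 in wild type, above 99.7% and 99% of tested probe sets. Replicate 1 was the highest array, replicate 2 the middle and replicate 3 the lowest in both groups. Taken within replicate numbers, the difference was -0.23, -1.28 and -1.25 for numbers 1, 2 and 3. With the replicate number as a block its standard error shrank from 0.45 to 0.20 and the interval ran from -1.38 to -0.46, but the adjusted p was 0.0604 and the gene was still not called, in a fit that called 257 probe sets (1.88%) in place of 63.

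The test of WRKY53 depended on which arrays were kept and on how they were weighted. Without pop2-1 replicate 1 the difference was -1.51 and passed (limma adjusted p = 0.0139), and 3.63% of all tested probe sets passed in that fit. That fit keeps pop2-1 replicate 2, the array with the high actin 3'/5' ratio. Leaving out any other single array gave -0.54 to -1.13 and no call, with -0.54 without pop2-1 replicate 3. Without pop2-1 replicate 2 the difference was -0.71 (limma adjusted p = 0.639). Weights estimated for each array, which gave pop2-1 replicates 1 and 2 the lowest values (0.415 and 0.303) and replicate 3 the highest (2.62), also led to a call (log2 -1.32, limma adjusted p = 0.0324), where 6.93% of all tested probe sets passed.

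**Figure D2:**
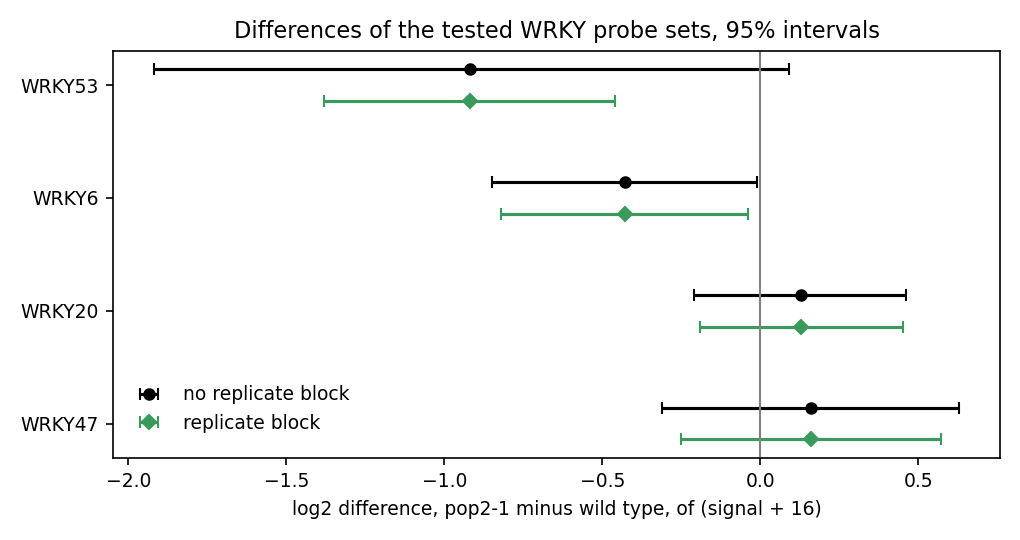
Log2 differences (pop2-1 minus wild type, of signal + 16) of the 4 tested WRKY probe sets with 95% intervals from limma, without (black circles) and with (green diamonds) the replicate number as a block. The point estimates are alike. The interval of WRKY53 narrows under the block and then lies below 0, and that of WRKY6 lies below 0 in both fits. Those of WRKY20 and WRKY47 include 0 in both fits. The intervals are not adjusted for multiple testing.

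WRKY6 belongs to group IIb and is known for its part in senescence, defence and phosphate transport. Its signals were 240, 144 and 183 on pop2-1 replicates 1 to 3 and 261, 251 and 254 on the wild-type arrays. All pop2-1 arrays lay below all wild-type arrays, though replicate 1 only narrowly. Such a separation, in either direction, was found for 17.9% of all tested probe sets and for 1 of the 4 WRKY probe sets. The means were 189 ± 48.1 and 255 ± 5.13 (SD, n = 3 per group), 1.35-fold lower in pop2-1 (log2 -0.43 ± 0.19, SE; 95% interval -0.85 to -0.01; limma adjusted p = 0.413). With the replicate number as a block the interval was -0.82 to -0.04 (limma adjusted p = 0.246), and the gene was still not called.

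The wild-type arrays agreed on WRKY6 more closely than on most transcripts: its SD of 0.03 on the log2 scale was larger than that of 4.07% of tested probe sets, and the pop2-1 SD of 0.34 was larger than that of 80.1%. The lowest WRKY6 signal came from pop2-1 replicate 2, the array with the high actin 3'/5' ratio, which gave the lowest signal of 24.6% of all tested probe sets and of 1 of the 4 WRKY probe sets. Without that array the difference was -0.27 (limma adjusted p = 0.612). With the log2 actin ratio as a covariate the difference was -0.27 (limma adjusted p = 0.497). That ratio mainly sets the same array apart, so the covariate is not a separate check. The same covariate took WRKY53 to -0.64 and WRKY47 to 0.30. Within replicate numbers WRKY6 differed by -0.12, -0.74 and -0.44.

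**Figure D3:**
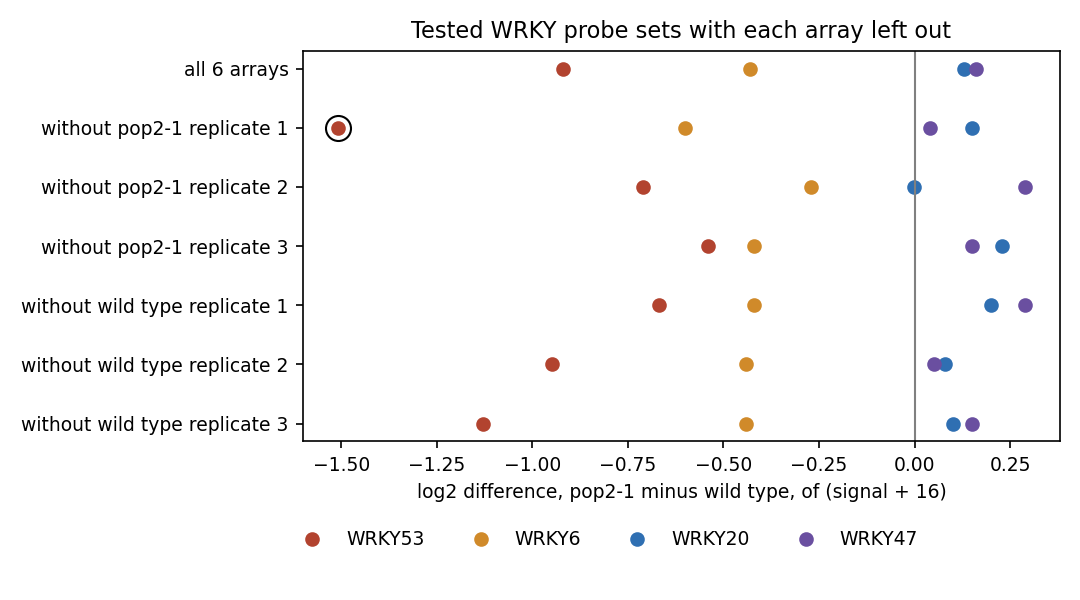
Log2 differences (pop2-1 minus wild type, of signal + 16) of the 4 tested WRKY probe sets with all 6 arrays and with each array left out in turn; a black ring marks an adjusted p under 0.05. WRKY53 ranges from -1.51 to -0.54 and is ringed once, without pop2-1 replicate 1, and WRKY20 reaches about 0 without pop2-1 replicate 2.

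WRKY47, also of group IIb, has been linked to cell wall changes under aluminium stress. It read 177, 120 and 150 on the pop2-1 arrays and 158, 109 and 127 on the wild-type arrays. The groups overlapped, and both had a coefficient of variation near one another, at 19.0% in pop2-1 and 18.9% in wild type. The difference was 0.16 ± 0.21 (SE, n = 3 per group; 95% interval -0.31 to 0.63; limma adjusted p = 0.784). Within replicate numbers it was 0.15, 0.12 and 0.21, and the residual SD of the fit with the block was 0.03, against 0.25 without. Limma draws each probe set's variance toward that of others of like intensity, so the blocked interval, -0.25 to 0.57, still included 0.

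WRKY20 is a group I factor, a class with a pair of WRKY domains. Signals of 558, 689 and 494 in pop2-1 and 585, 490 and 506 in wild type overlapped, and the highest was that of pop2-1 replicate 2. On the log2 scale the difference was 0.13 ± 0.15 (SE, n = 3 per group; 95% interval -0.21 to 0.46; limma adjusted p = 0.759). Without pop2-1 replicate 2 it was -0.00093. WRKY20 was the 1 tested member whose arrays stood in a different order in the 2 groups.

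WRKY22, of group IIe, acts downstream of a MAP kinase cascade in the response to bacterial flagellin. It was too dim for the test, with signals of 145, 85.2 and 134 in pop2-1 and 136, 111 and 113 in wild type. The means were nearly level, at 121 ± 31.7 and 120 ± 13.9 (SD, n = 3 per group), and in a fit without the filter the difference was -0.01 ± 0.24 (SE; 95% interval -0.55 to 0.53; limma adjusted p = 0.993). Pop2-1 replicate 2 had the lowest signal, as for WRKY6.

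WRKY42, a close relative of WRKY6 in group IIb that acts with it on phosphate transport, had the dimmest probe set, at 8.91, 8.47 and 9.97 in pop2-1 and 6.42, 5.88 and 21.9 in wild type. Whether such signals lie above background is not known here, since detection calls were not used, and no fold is given. The next protein-coding gene in the reference table, AT4G04460, is one of the probe sets that fell (log2 -1.20, limma adjusted p = 0.0488). The genes on either side of WRKY53 were level, with differences of -0.04 for 3xHMG-box2 and 0.10 for AT4G23820 (limma adjusted p = 0.898 and 0.753). By locus number 5 of the 6 members lie on chromosome 4 and WRKY6 on chromosome 1. The chromosomes of the other WRKY genes in the reference table were not analysed here, so this says nothing about the family's placement.

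The order of arrays recurred between the groups in most members. In WRKY53, WRKY6 and WRKY47, 3 of the 4 tested, the 3 replicate numbers stood in the same order in pop2-1 as in wild type, as was the case for 25.6% of all tested probe sets. Replicate 1 was highest in both groups in the same 3 genes, beside 12.5% of all tested probe sets. For WRKY6 the wild-type signals all lay between 251 and 261, so their order rests on small differences. The SD on the log2 scale was larger in pop2-1 for all 4 tested members, as it was for 74.1% of all tested probe sets.

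Genes that work with WRKY factors gave a similarly limited picture. Of 76 names listed from MAP kinase signalling, salicylic acid, jasmonate and ethylene responses, senescence, phosphate transport and seed growth, 8 genes were named on the array and 5 were bright enough to test. None passed in either direction (0 of 5 higher and 0 of 5 lower, beside 0.462% of all tested probe sets), 1 had an unadjusted p under 0.05 (beside 11.9%), and their median difference was -0.08, where that of all tested probe sets was 0.03. SAG29, a sugar exporter gene of the SWEET family that rises in senescence, read 1372, 703 and 1058 in pop2-1 and 1554, 1384 and 1864 in wild type, so the groups did not overlap (log2 -0.65 ± 0.22, SE; limma adjusted p = 0.298). It was the 1 gene of the 5 with such a separation, beside 17.9% of all tested probe sets. With the replicate number as a block the limma adjusted p of SAG29 was 0.0691, and the gene was still not called. As for WRKY6, its lowest signal was on pop2-1 replicate 2.

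STZ, the zinc finger repressor also called ZAT10 that is induced by many stresses, read 573, 182 and 171 in pop2-1 and 249, 204 and 172 in wild type. Its one high array was pop2-1 replicate 1. BIK1, a cytoplasmic kinase of immune receptor complexes, read 757, 314 and 438 in pop2-1 and 480, 527 and 494 in wild type. Replicate 1 was the highest of the pop2-1 arrays for 4 of the 5 tested list genes, STZ, BIK1, SAG29 and EIN3, and for 3 of the 4 tested WRKY genes, beside 30.9% of all tested probe sets. Neither STZ nor BIK1 differed between the groups beyond this spread, with log2 differences of 0.33 ± 0.39 and -0.08 ± 0.26 (SE, n = 3 per group; limma adjusted p = 0.758 and 0.916). IKU1, which acts in seed growth with the WRKY protein MINI3, had a difference of 0.19 ± 0.17, and EIN3, a transcription factor of the ethylene response, one of -0.08 ± 0.13 (limma adjusted p = 0.675 and 0.827). SAG101, PDF1.2 and IKU2 were too dim to test.

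**Figure D4:**
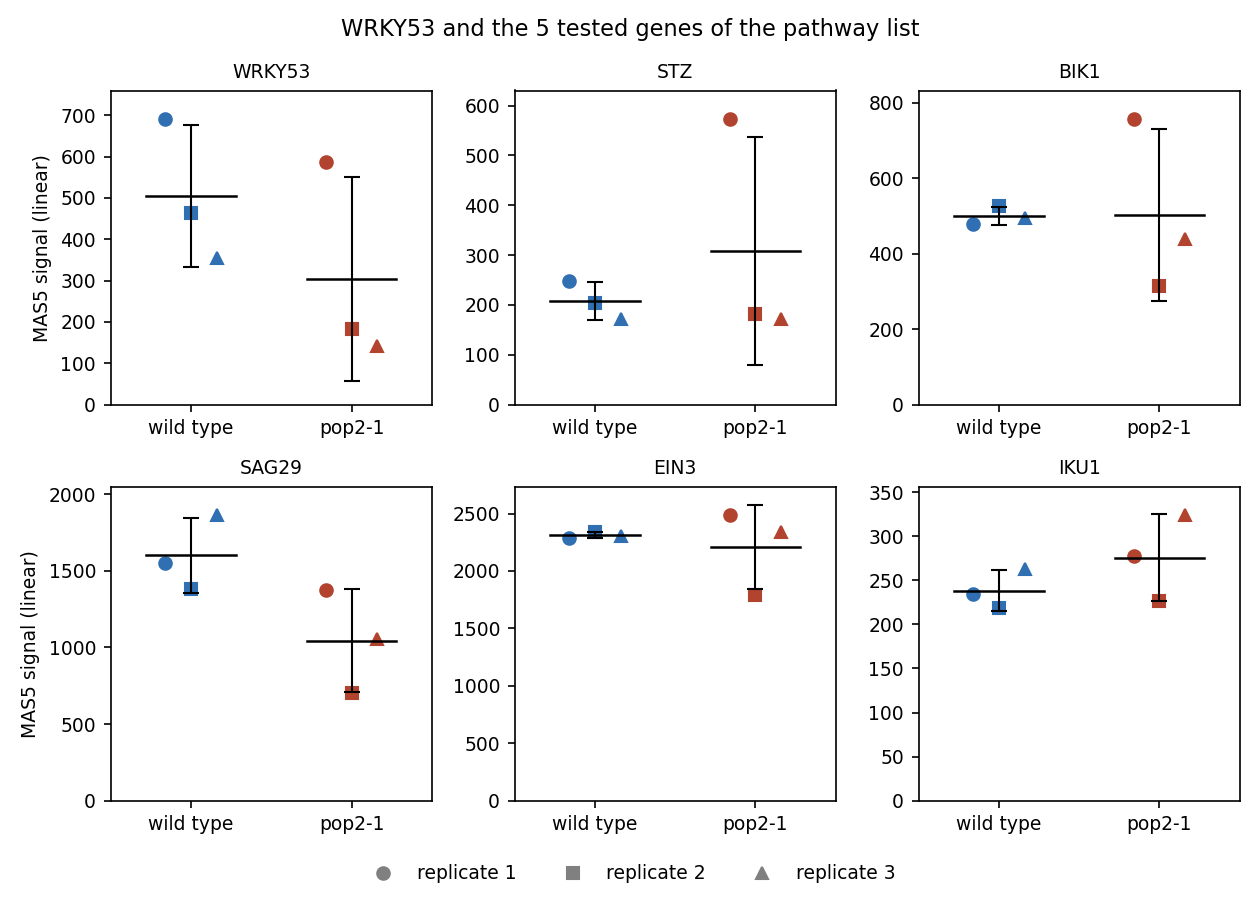
MAS5 signals (linear axes from 0, each panel on its own scale) of WRKY53 and of the 5 tested genes of the pathway list on 3 wild-type (blue) and 3 pop2-1 (red) arrays, with symbols for the replicate number, a bar for the mean and error bars for the SD. Pop2-1 replicate 1 is the highest pop2-1 array in every panel but that of IKU1, and SAG29 is the panel in which the groups do not overlap.

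Markers of other tissues of the flower were read beside the family. For young seed, 3 of 5 listed markers were named on the array, and their summed signal ran from 61.3 to 92.1 over the pop2-1 arrays and from 265 to 530 over the wild-type arrays. That sum is mostly BAN, the anthocyanidin reductase of the seed coat, which fell (log2 -2.45, limma adjusted p = 0.0102), while AGL62 and IKU2 were below 126.2 on all arrays. For pollen, 4 of 7 were named, and their sum ran from 693 to 1350 over the pop2-1 arrays and from 656 to 794 over the wild-type arrays, overlapping and highest on pop2-1 replicate 2. The part of these tissues in the WRKY53 and WRKY6 differences was not tested. ZAP1, the gene of WRKY1, is left out of the family by its symbol. Its signals were level, at 931, 930 and 879 in pop2-1 and 923, 874 and 806 in wild type (log2 0.07 ± 0.11, SE, n = 3 per group; limma adjusted p = 0.809).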

How the data were processed

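The deposited values are MAS5 signals, linear hybridisation intensities with 1 value per probe set and array, made by the authors with MAS5 per the submitters' processing notes; the MAS5 version and the target signal are not given in the sources used here. The 2% trimmed mean was 500.04 on each array, so a difference is relative to an average transcript. Gene names came from the platform annotation, updated through Entrez numbers to the TAIR10.1 gene table (13436 of 13513 probe sets with 1 gene matched). The 64 control probe sets were left out, and 16 was added before log2. Of 22746 probe sets, those above the 40th percentile of mean log2 were tested with limma 3.58.1 in R 4.3.3 (lmFit, eBayes with an intensity trend, 2-sided), called at an adjusted p under 0.05; the fit was tested on simulated data. Errors are SD of signals or SE of differences, and the number of arrays limits precision.

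Every WRKY probe set is named; from the pathway list, the rule took the 4 tested genes with the smallest p. BIK1, the dim genes of that list, neighbouring genes, tissue markers and ZAP1 were named after their values were seen. Counts of array order and of the larger SD were not fixed in advance, so they only describe these arrays. WRKY groups are background knowledge, not read from sequence. That list and the tissue markers were matched by symbol or synonym. Members and lists were chosen with earlier results of these data known. Same-numbered arrays of the 2 groups deviated together (r = 0.213, 0.421 and 0.178 across probe sets), so the numbers, which come from the titles, were taken to pair the arrays. The fit with the block is given in the text for WRKY53, WRKY6, WRKY47 and SAG29. Other adjusted p-values of single genes are from the fit without it. Alternatives covered pseudocount, filter, scaling, block, array weights, actin ratio, trend and each array left out.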

Additional observations from a re-analysis of the deposited data

How the results depend on the processing

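The 4 tested WRKY genes kept their direction under all alternatives run, except WRKY20, which stood at -0.01 with array weights and at -0.00093 without pop2-1 replicate 2, within -0.00093 to 0.23 with an array left out. Over 15 or 16 alternatives each, WRKY53 ranged from -1.51 to -0.54 (adjusted p 0.0139 to 0.814), WRKY6 from -0.60 to -0.27 (0.083 to 0.828) and WRKY47 from 0.04 to 0.30. The median of the tested members ranged from -0.40 to -0.04, over differing sets of members. The -0.40 came from a filter at the 60th percentile, which tests WRKY20 and WRKY53 (median of all tested probe sets 0.01). The -0.04 came from the fit without the filter, with 6 members (median of all probe sets 0.04). The count of WRKY genes called was 0, except 1 (WRKY53) with array weights and without pop2-1 replicate 1, so 0 to 1 with an array left out. WRKY genes whose groups do not overlap numbered 1 to 2 with an array left out, where fewer arrays have to separate. They numbered 0 with a filter at the 60th percentile, which no longer tests WRKY6 or WRKY47. The share over all tested probe sets is not given for these fits, so these counts are not read as a result about the family. The replicate block changed no WRKY call. Over all probe sets, where 63 were called, there were 257 with the replicate block, 946 with array weights, 155 with the actin ratio, 150 at an adjusted p under 0.10, 37 with a filter at the 60th percentile (fewer tested) and 5 to 496 with an array left out; the cause was not tested otherwise.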
